A study of Homo sapiens with 3 samples.

Results

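The genes described here are those of the cytosolic ribosomal proteins, which were taken from the deposited gene tables as the protein-coding genes named RPL or RPS with a number and an optional A or X, together with RPLP0, RPLP1, RPLP2 and RPSA. This rule found 77 of 58735 listed genes, 46 of the large (60S) subunit and 31 of the small (40S) subunit. They were compared in A549 cells, a human lung adenocarcinoma cell line, in 3 RNA-seq libraries, 1 for each condition. Control-sh is the library of control knockdown cells. For these the methods of the study name the empty pLKO.1 lentiviral vector, but a figure legend for A549 cells names a control short hairpin RNA (shRNA). DDX24-sh1 and DDX24-sh2 are the libraries of cells with either of 2 shRNAs against DDX24, a DEAD-box RNA helicase. They are called sh1 and sh2 below. All 3 came from cells that had survived puromycin selection after lentiviral infection and were grown in F12K medium with fetal bovine serum; whether they were pools or clones is not stated. Nothing in the labels names separate cultures, and with no replicate no difference below has a replicate check and none was tested: the intervals given are 95% intervals for counting error in the libraries compared.

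The ribosome is built from ribosomal RNA and a fixed set of proteins, most of them present once in each particle. The mRNAs of these proteins are among the most abundant in a growing cell, and most begin with a 5′ terminal oligopyrimidine (TOP) tract, a C followed by a run of pyrimidines, through which mTOR and LARP1 control their translation and stability. Helicases related to DDX24 take part in the assembly of ribosomal subunits, and its yeast relative Mak5 acts in the maturation of the large subunit.

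A sequence at the annotated start was read for 62 of the 77 genes from the RefSeq table of promoters (build GRCh38.p14), which held 27305 genes in all. A TOP tract, searched as C followed by at least 4 letters C or T on the coding strand, began exactly at a RefSeq start in 46 of the 62 genes (74.2%), against 5.14% of all genes of the table. The shares were 73.7% for the large and 75.0% for the small subunit. Within 10 bases of the start it was found in 57 of the 62 genes (91.9%), against 38.4% of all genes. The windows below hold 10 bases before and 20 bases after the first listed start, 5′ to 3′, for the genes that the results turn on, with the tract in capitals, and for EEF2 and EEF1A1, the elongation factors to which they are compared below.
RPL35 (chr9:124861938-124861967, minus strand): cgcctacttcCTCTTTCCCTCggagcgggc
RPS12 (chr6:132814559-132814588, plus strand): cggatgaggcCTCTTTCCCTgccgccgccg
RPL38 (chr17:74203668-74203697, plus strand): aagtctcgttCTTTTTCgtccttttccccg
RPL36A (chrX:101391001-101391030, plus strand): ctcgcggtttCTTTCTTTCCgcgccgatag
RPL13A (chr19:49487598-49487627, plus strand): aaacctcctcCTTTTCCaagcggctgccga
RPS16 (chr19:39435930-39435959, minus strand): ccctagctttCCTTTTCCggttgcggcgcc
RPS26 (chr12:56041908-56041937, plus strand): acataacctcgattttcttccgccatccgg
RPS29 (chr14:49598691-49598720, minus strand): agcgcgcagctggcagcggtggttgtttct
RPS28 (chr19:8321486-8321515, plus strand): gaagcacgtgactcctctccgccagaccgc
RPL9 (chr4:39458903-39458932, minus strand): taatgacgacagacgttctttctttgctgc
RPL3 (chr22:39319604-39319633, minus strand): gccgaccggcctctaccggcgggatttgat
EEF2 (chr19:3985444-3985473, minus strand): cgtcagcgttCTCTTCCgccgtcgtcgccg
EEF1A1 (chr6:73521013-73521042, minus strand): cgtgaacgttCTTTTTCgcaacgggtttgc
The tract stood at the start in RPL35, RPS12, RPL38, RPL36A, RPL13A and RPS16, while in RPS26, RPS29, RPS28, RPL9 and RPL3 no tract began at that base. A match describes only the letters in the window.

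The libraries held 17218884 (Control-sh), 18337471 (sh1) and 17847190 (sh2) counts. DDX24 itself was counted 2010 times in Control-sh, 637 times in sh1 and 765 times in sh2, which is a log2 ratio to Control-sh of -1.75 (interval -1.89 to -1.63) and -1.47 (-1.60 to -1.35). All 9 listed markers of A549 and epithelial cells had a mean of at least 1 CPM (counts per 1000000 counts of the scaled library). EPCAM was low, with 32, 29 and 29 counts, KRT19 was higher in the knockdown libraries (1001, 2251 and 2728 counts) and CDH1 lower (538, 358 and 261 counts). Of 6 markers of other cell types, PTPRC and CD3E had no counts, ALB and SFTPC had 4 or fewer in each library, PECAM1 had 6, 12 and 7, and COL1A1 had 139, 174 and 143. The FPKM tables of the same libraries carried the shRNA names the other way round: FPKM times gene length was within 1% of a fixed multiple of the count for all 12171 genes with at least 50 counts in sh1 when set against the FPKM labelled sh2, and for 5.23% of them under its own label. The count labels are used throughout, and which table is labelled correctly is not known, so each statement about a single hairpin holds for the library labelled so in the counts.

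The ribosomal protein genes took up nearly the same part of each library. They held 853925 counts or 4.96% (interval 4.95 to 4.97%) of all counts in Control-sh, 893466 or 4.87% (4.86 to 4.88%) in sh1 and 864746 or 4.85% (4.84 to 4.86%) in sh2. The large subunit genes held 3.03%, 2.96% and 2.94% of the counts, and the small subunit genes 1.93%, 1.92% and 1.90%. Genes of the mitochondrial genome held more of the counts in the knockdown libraries, from 4.36% in Control-sh to 5.13% in sh1 and 7.04% in sh2. As a share of nuclear protein-coding counts alone, the ribosomal protein genes held 5.26%, 5.21% and 5.30%, so that the order of sh2 and Control-sh depended on the denominator. In these bulk libraries, less RNA of a gene per cell and fewer cells that express it cannot be told apart.

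Within the group, levels were compared per length, as CPM per kilobase of the RefSeq-matched transcript in GENCODE 29. The median level in Control-sh was 590.2 over all 77 genes, 492.8 in the large and 656.7 in the small subunit. Among the highest in the small subunit were RPS16 (2482), RPS2 (1865), RPS14 (1235) and RPSA (1211 CPM per kb), the last being the protein also known as the laminin receptor. In the large subunit they were RPL13A (2155), RPLP0 (1629), RPL8 (1583), RPL19 (1417) and RPL41 (1348 CPM per kb). The lowest in the large subunit were RPL36A (2.79), RPL17 (7.57), RPL14 (39.3), RPL22 (49.1) and RPL37 (49.6), and among those in the small subunit were RPS10 (1.18), RPS23 (36.7), RPS15A (49.1) and RPS28 (147.1 CPM per kb). Some of these levels rest on the length used, since the matched transcripts of RPL14, RPL37, RPS23, RPS15A and RPL22 were 7072, 7686, 3437, 2203 and 2078 bases long.

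RPS10, RPL17 and RPL36A, the lowest of the genes named, share exons with a neighbour on the same strand, as does RPL26. RPS10 had 77.0% of its exonic bases in another gene of the same strand, RPL17 76.3%, RPL26 59.0% and RPL36A 37.8%. The 5 genes with such an overlap of at least 30% had a median level of 7.57 CPM per kb in Control-sh, with a range of 1.18 to 112.5, whereas the 67 genes with no such overlap had a median of 622.6 and a range of 36.7 to 2482. The readthrough genes RPS10-NUDT3, RPL17-C18orf32 and RPL36A-HNRNPH2, and AC135178.2 at RPL26, were listed at 0 counts in every library. EEF1G, an elongation factor subunit with a TOP mRNA, was also listed at 0 in every library, and 99.9% of its exonic bases lie in AP002990.1, which had 34, 41 and 25 counts. How the counter treated reads in shared exons was not given in the sources used here, so the levels of these 5 genes are uncertain.

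**Figure D1:**
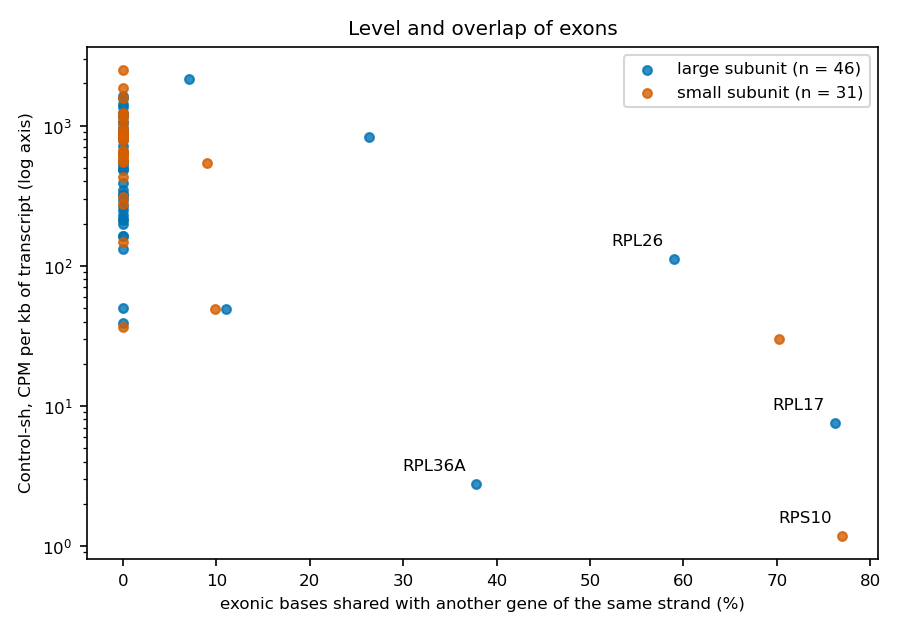
Level in Control-sh (CPM per kb of transcript, log axis) against the share of exonic bases that lie in another gene of the same strand, 1 point for each of 77 ribosomal protein genes. The 5 genes with an overlap of at least 30% lie between 1.18 and 112.5 CPM per kb, and the median of the 67 genes with no overlap is 622.6.

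As a group, the ribosomal protein genes differed little from Control-sh in either knockdown library. Of the 77 genes, 76 had a mean of at least 1 CPM (RPS10 did not), and their median log2 ratio to Control-sh was -0.01 in sh1 and -0.02 in sh2, next to -0.02 and -0.03 over all 13984 genes at that level. In sh1, 1 gene was at least 1.2-fold higher (RPL36A) and 1 at least 1.2-fold lower (RPL17), where the shares over all genes were 20.9% and 25.0%. In sh2, 4 were at least 1.2-fold higher (RPL36A, RPL17, RPS26 and RPL35) and 5 at least 1.2-fold lower (RPS29, RPL9, RPS28 and RPL13 among them), where the shares over all genes were 21.1% and 25.6%. With the counts of their pseudogenes added, 3 were lower in sh2, since RPL9 and RPS28 then lay within 1.2-fold. Only RPL36A passed 1.5-fold among these 76 genes, in each of the comparisons with Control-sh. With its pseudogenes added, RPL36A passed 1.5-fold in sh2 (log2 ratio 1.03) but not in sh1 (0.45, interval -0.07 to 1.01). The share over all genes at 1.5-fold is not given here.

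**Figure D2:**
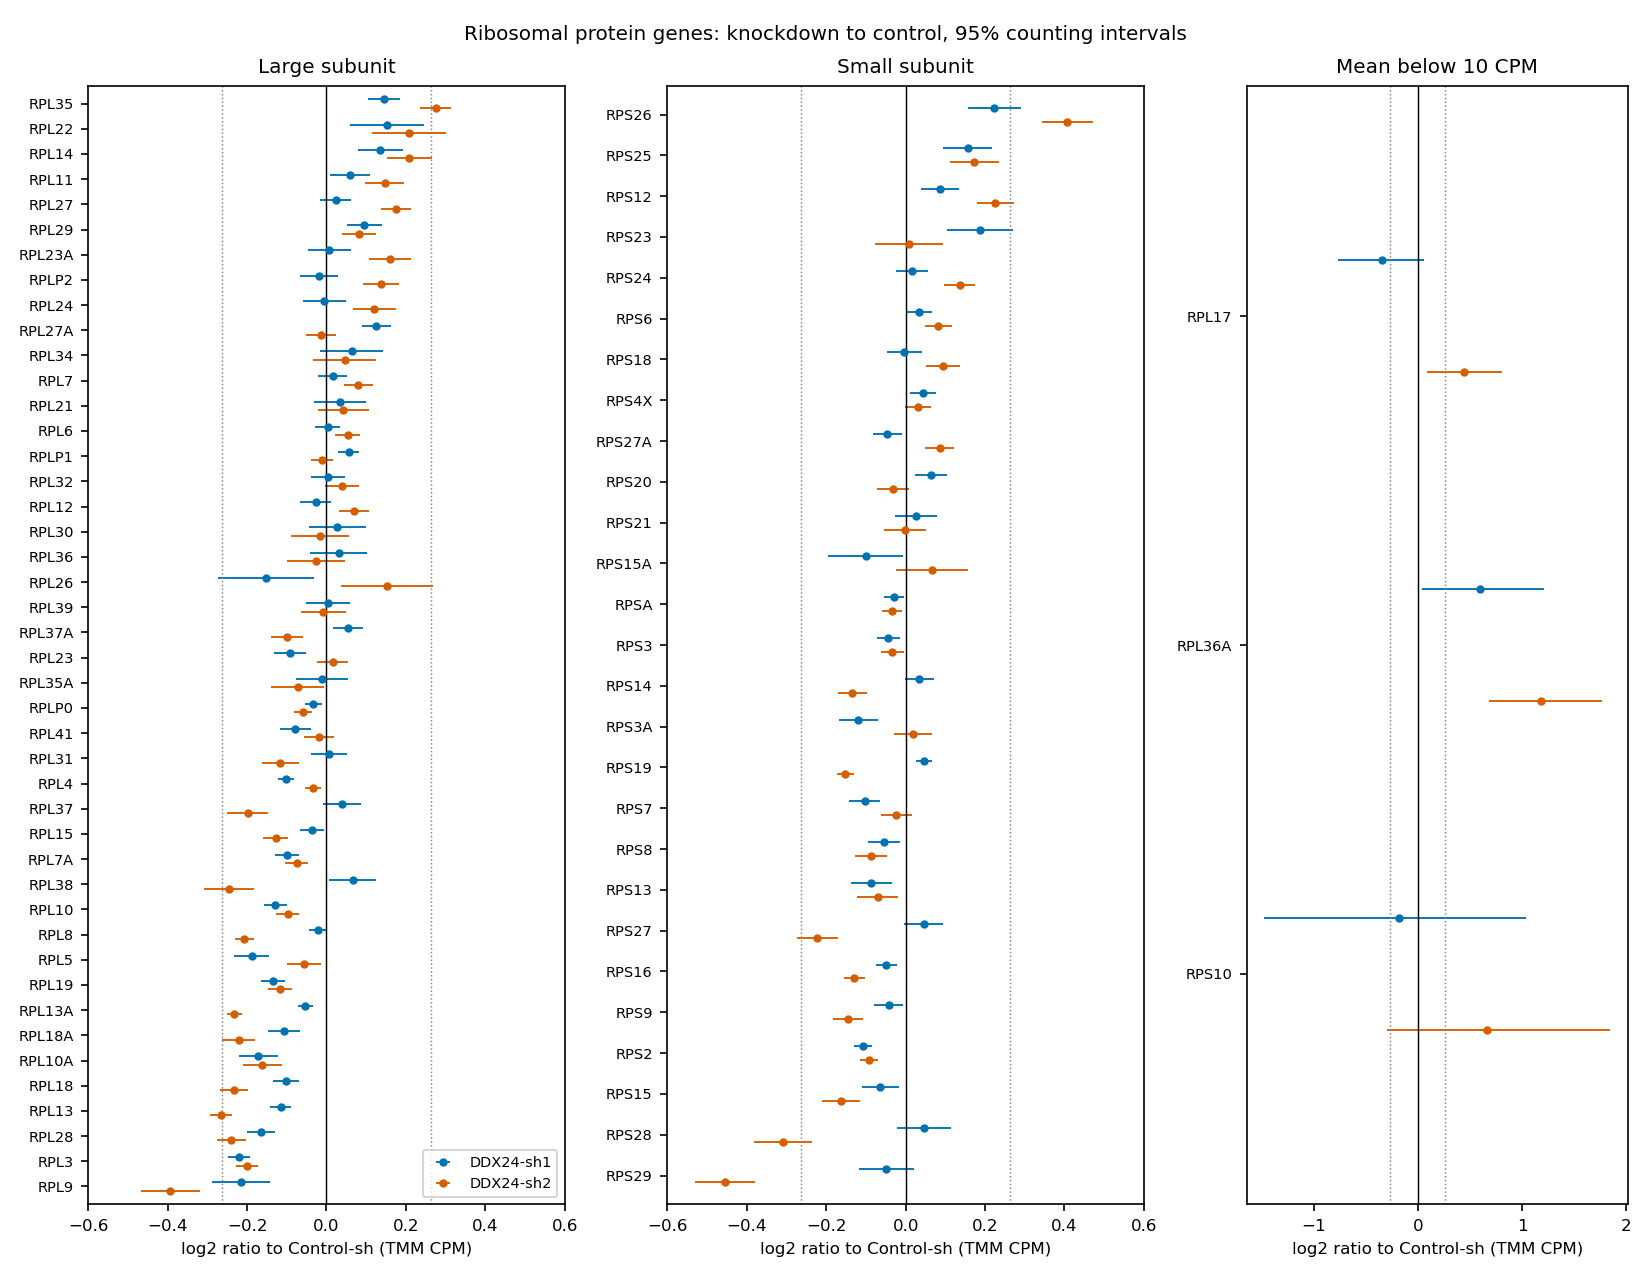
Log2 ratio to Control-sh of TMM-scaled CPM for ribosomal protein genes at 10 CPM or more by subunit (left and middle) and the 3 genes below it (right, wider axis). Points are libraries, bars 95% counting intervals, and dotted lines 1.2-fold. In sh1 the genes at 10 CPM or more all lie within 1.2-fold, and in sh2 RPS29 (-0.45) and RPS26 (0.41) stand at the ends.

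Most genes of the group are far better counted than the average gene, so they were also set beside genes that averaged 100 CPM or more, 2127 in all, of which 72 were ribosomal protein genes. In sh1 none of the 72 was 1.2-fold higher or lower, against 15.1% and 19.1% of the 2127. In sh2, 2 of the 72 were higher (RPS26 and RPL35) and 5 lower, against 12.0% and 22.8%. The SD of the log2 ratios over the 72 genes was 0.093 in sh1 and 0.16 in sh2, and over the other 2055 genes it was 0.36 and 0.37. Small differences were nevertheless countable: the interval excluded 0 for 48 of the 72 genes in sh1 and for 55 in sh2 (66.7% and 76.4%), next to 76.6% and 79.3% of the 2127 genes. Most ribosomal protein genes thus differed from Control-sh beyond counting error, as did most of the 2127 genes. In the ribosomal protein genes these differences were mostly below 1.2-fold. The intervals leave out error in the scaling between libraries. The median half-width of the interval was 0.040 for the 72 genes and 0.0735 and 0.0745 for the other 2055, so counting error was the smaller in the ribosomal protein genes.

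The genes of the mitochondrial ribosome, which are encoded in the nucleus and make a separate ribosome inside mitochondria, also had medians near 0. Of 78 such genes 77 had a mean of at least 1 CPM, and their median log2 ratio was -0.001 in sh1 and 0.04 in sh2. Their SD was 0.18 in sh1 and 0.21 in sh2, next to 0.12 and 0.22 for the 76 cytosolic genes at the same minimum. Over the 74 cytosolic genes with at least 10 CPM, which leave out RPL36A and RPL17, it was 0.093 and 0.16. In sh1, 7 of the mitochondrial ribosomal protein genes were at least 1.2-fold higher and 5 lower, where the shares over all genes were 20.9% and 25.0%. In sh2, 12 were higher and 5 lower, where the shares were 21.1% and 25.6%. The extremes were MRPL41 (1110, 1693 and 1384 counts in Control-sh, sh1 and sh2) and MRPL30 (515, 428 and 563) in sh1, and MRPS25 (537, 663 and 847) and MRPS28 (158, 198 and 124) in sh2. These genes were counted less deeply, with a median half-width of the interval of 0.15.

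**Figure D3:**
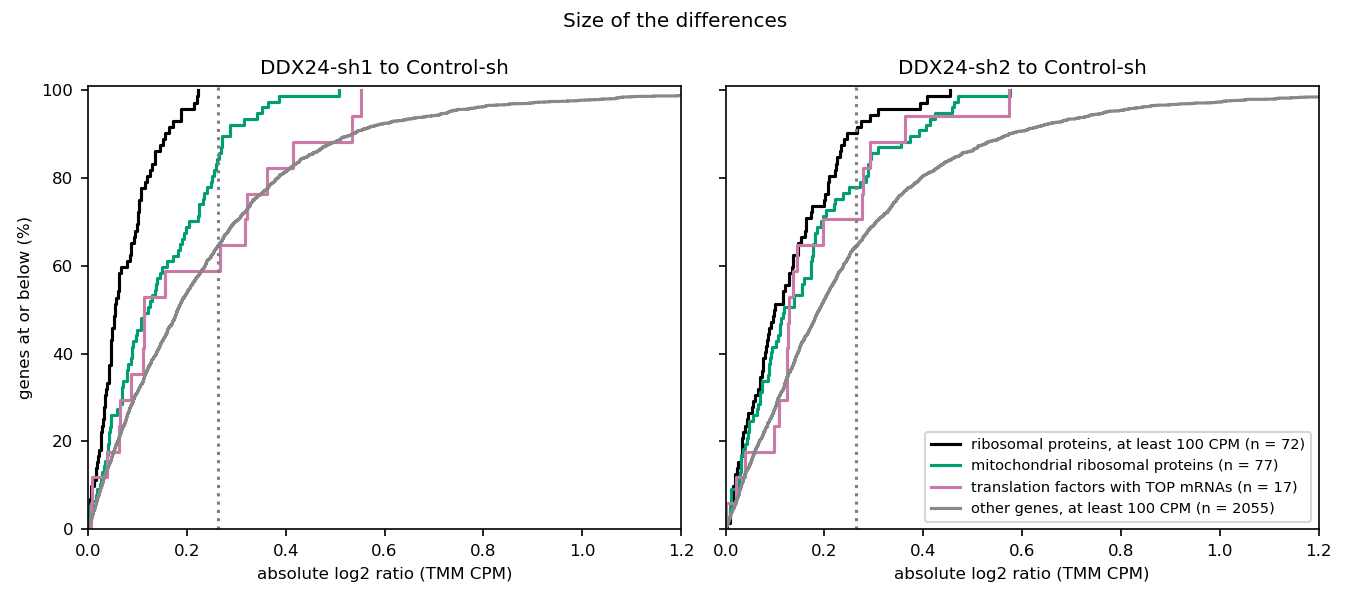
Share of genes (%) at or below each absolute log2 ratio to Control-sh, for 72 ribosomal protein genes and 2055 other genes at 100 CPM or more, and for 77 mitochondrial ribosomal protein genes and 17 translation factor genes at 1 CPM or more. The dotted line marks 1.2-fold, within which lie all 72 ribosomal protein genes in sh1 and 90.3% in sh2, against 64.6% and 64.4% of the other genes.

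Differences between the subunits were small, and their sign depended on the measure. The median log2 ratio of the 46 large subunit genes was -0.01 in sh1 and -0.02 in sh2, and that of the 30 small subunit genes with at least 1 CPM was -0.02 and -0.03. The large minus small difference of the medians was 0.007 and 0.011. Summed over genes, the large subunit had 522075 and the small subunit 331850 counts in Control-sh, 1.573 large subunit counts for each small subunit count. This ratio was 1.543 in sh1 and 1.549 in sh2, and its log2 ratio to Control-sh was -0.028 (interval -0.037 to -0.019) and -0.022 (-0.031 to -0.013). The medians and the sums thus differed in sign. Without the 3 highest genes of each subunit, the log2 ratio of the sums was -0.026 in sh1 and -0.029 in sh2. Without the 10 genes that share exons with a same-strand gene, the log2 ratio of the sums was -0.028 in sh1 and -0.0051 in sh2 (interval -0.014 to 0.0041). The best counted gene left out was RPL13A, with 43444, 44864 and 39126 counts (log2 ratios -0.05 and -0.23). Only 7.11% of its exonic bases were shared.

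The largest difference of a well-counted gene upward was that of RPS26 (chr12:56041351-56044697, plus strand, as the tables give it), a small subunit protein at the exit of the mRNA channel. It had 3309 counts in Control-sh, 4139 in sh1 and 4640 in sh2. The log2 ratio to Control-sh was 0.22 (interval 0.16 to 0.29) and 0.41 (0.34 to 0.47). sh2 also stood above sh1, by 0.18 (0.12 to 0.24). RPS25, which viral internal ribosome entry sites need for initiation, had 3908, 4666 and 4658 counts, so both knockdown libraries were higher than Control-sh by nearly the same amount (0.16 and 0.17). RPS12, a protein of the beak of the small subunit, had 6648, 7560 and 8219 counts (log2 ratios 0.09 and 0.23). RPS23, which lines the decoding centre, was higher in sh1 (2152 against 2627 counts, log2 ratio 0.19) and had 2289 counts in sh2 (0.01, interval -0.08 to 0.09), and RPS24 had 9554, 10358 and 11102 counts (0.02 and 0.14).

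Among the large subunit genes with at least 10 CPM, the highest ratios belonged to RPL35, RPL22, RPL14, RPL27 and RPL27A. RPL35 (chr9:124857880-124861981, minus strand), which sits at the exit of the polypeptide tunnel, had 9147 counts in Control-sh, 10839 in sh1 and 11702 in sh2. Its log2 ratio was 0.14 (interval 0.10 to 0.19) and 0.27 (0.24 to 0.31). RPL22 had 1741, 2074 and 2126 counts (0.15 and 0.21) and RPL14 had 4748, 5589 and 5804 counts (0.14 and 0.21). RPL27 differed in sh2 (10347 against 12358 counts, log2 ratio 0.18) with 11269 counts in sh1 (0.02, interval -0.02 to 0.06). RPL27A was the reverse, with 11024, 12890 and 11554 counts (0.13 and -0.01).

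Without pseudogene counts, the lowest ratio of all came from RPS29 (chr14:49570984-49599164, minus strand), a small zinc-binding protein in the head of the small subunit. It had 3318 counts in Control-sh and 3437 in sh1 but 2560 in sh2. The log2 ratio was -0.05 (interval -0.12 to 0.02) in sh1 and -0.45 (-0.53 to -0.38) in sh2. RPS28, which lies beside the mRNA exit, followed the same course with 3330, 3685 and 2843 counts (0.05 and -0.31, or -0.20 in sh2 with its pseudogenes), as did RPS27, another zinc-binding protein, with 6415, 7097 and 5814 counts (0.05 and -0.22). These genes were thus lower beyond counting error only in the library labelled sh2. In sh1 the lowest small subunit genes were RPS3A (6800, 6709 and 7286 counts), RPS2 (31347, 31179 and 31109), RPS7 (10710, 10682 and 11142) and RPS15A (1848, 1847 and 2046), with log2 ratios between -0.12 and -0.10 there, and of these RPS2 was at -0.09 in sh2.

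In the large subunit, RPL9 (chr4:39452521-39458949, minus strand) had 3219 counts in Control-sh, 2972 in sh1 and 2592 in sh2. Its log2 ratio was -0.21 (interval -0.29 to -0.14) and -0.39 (-0.47 to -0.32), but within 1.2-fold in both libraries once its pseudogenes were added. RPL3, which reaches towards the peptidyl transferase centre, had 21147, 19448 and 19465 counts, so both knockdown libraries were lower by nearly the same amount (-0.22 and -0.20). RPL10A had 6834, 6502 and 6461 counts (-0.17 and -0.16). RPL13 had 22553, 22315 and 19824 counts (-0.12 and -0.27) and RPL28 had 13342, 12754 and 11950 counts (-0.16 and -0.24). RPL38, which in mouse embryos is known for the translation of Hox mRNAs, had 4335, 4863 and 3865 counts, above Control-sh in sh1 (0.07, interval 0.01 to 0.13) and below it in sh2 (-0.25, interval -0.31 to -0.18).

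Direct comparison of the knockdown libraries, which leaves Control-sh out, also showed small differences. Over the 72 genes with at least 100 CPM the median log2 ratio of sh2 to sh1 was 0.001 and the SD 0.13, and over the other 2055 genes the median was -0.04 and the SD 0.22. None of the 72 was at least 1.2-fold higher in sh2 than in sh1 and 4 were at least 1.2-fold lower, against 6.49% and 13.5% of the 2127 genes. These 4 were RPS29 (-0.41, interval -0.48 to -0.33), RPS28 (-0.35, -0.43 to -0.28), RPL38 (-0.31, -0.37 to -0.25) and RPS27 (-0.27, -0.32 to -0.22).

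By place in the ribosome, the P stalk, which recruits and activates elongation factors, was nearly level. RPLP0 had 33859, 35468 and 34363 counts (log2 ratios -0.03 and -0.06), RPLP1 had 21655, 24122 and 22716 (0.06 and -0.01), and RPLP2 had 7204, 7620 and 8375 (-0.02 and 0.14). RPL12, at the base of the stalk, had 10403, 10939 and 11538 counts (-0.03 and 0.07). None of these 4 genes reached 1.2-fold in either library. The shares over all genes were 20.9% higher and 25.0% lower in sh1, and 21.1% and 25.6% in sh2. RPL5 and RPL11, which carry the 5S rRNA and can bind MDM2, the ubiquitin ligase of p53, did not move together. RPL5 had 8718, 8199 and 8870 counts, a log2 ratio of -0.19 (interval -0.23 to -0.14) in sh1 and -0.06 (-0.10 to -0.01) in sh2. RPL11 had 6018, 6722 and 7044 counts, at 0.06 (0.01 to 0.11) and 0.15 (0.10 to 0.20).

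Of the 7 genes at the rim of the polypeptide exit tunnel, 1 (RPL17) was 1.2-fold lower in sh1 and 2 (RPL17 and RPL35) 1.2-fold higher in sh2, where the shares over all genes were 25.0% and 21.1%, with medians of 0.004 and 0.15. Of 13 counted genes of the small subunit head none passed 1.2-fold in sh1 and 2 (RPS28 and RPS29) were lower in sh2, against 25.6% of all genes, with medians of -0.003 and -0.03. At the upper end of this list stood RPS25 in sh1 (0.16) and RPS12 in sh2 (0.23). Among genes mutated in Diamond-Blackfan anaemia, an inherited failure of red cell production caused by loss of a ribosomal protein gene copy, 9 of 10 had a mean of at least 1 CPM. None of the 9 passed 1.2-fold in sh1, and 1 (RPS26) did so upward in sh2, against 21.1% of all genes. Their medians were 0.02 and 0.03, and the lowest were RPL5 in sh1 and RPS19 in sh2 (34279, 37930 and 32626 counts, log2 ratios 0.05 and -0.15). RPS27A, made as a fusion with ubiquitin, had 11382, 11814 and 12779 counts (-0.05 and 0.09), and RPSA had 24199, 25425 and 24980 (-0.03 in each).

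The 3 genes with a mean below 10 CPM had the fewest counts, and 1 of them, RPL36A, had the largest ratio of the group in each library. RPL36A (chrX:101390824-101396154, plus strand) had 42 counts in Control-sh, 69 in sh1 and 103 in sh2, with log2 ratios of 0.59 (interval 0.04 to 1.21) and 1.18 (0.68 to 1.77). RPL17 (chr18:49488453-49492523, minus strand) had 111, 93 and 160 counts, with -0.35 (-0.77 to 0.06) and 0.44 (0.09 to 0.81). RPS10 (chr6:34417454-34426125, minus strand) had 13, 12 and 23 counts, and its intervals spanned 0 in both libraries. More counts lay on its pseudogenes (119, 68 and 73). With these added, the log2 ratio of RPS10 was -0.81 (interval -1.24 to -0.41) in sh1 and -0.53 (-0.93 to -0.15) in sh2. All 3 genes are among those that share their exons. How reads in shared exons were counted was not given, so these values are uncertain.

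Processed pseudogenes, which are copies of these mRNAs inserted into the genome, were also listed with counts. The tables listed 1132 pseudogenes named after the group, of which 300 had any counts, and together they held 28888, 29802 and 30058 counts (0.168%, 0.163% and 0.168% of all counts). In 8 genes with at least 10 CPM the pseudogenes held at least 10% of the joint counts. Among these 8 genes RPL9 was the extreme case, with 3902, 3753 and 4202 counts on its pseudogenes against 3219, 2972 and 2592 on the gene. RPL9P9 alone held 3853, 3704 and 4142 of them. With the pseudogenes added, the log2 ratio of RPL9 in sh2 was -0.15 (interval -0.20 to -0.10) in place of -0.39, and in sh1 it was -0.18 in place of -0.21. RPS28 had 1936, 2261 and 1994 counts on its pseudogenes, and its joint log2 ratio in sh2 was -0.20 in place of -0.31. For RPS7, RPL7, RPS2, RPL22, RPL26 and RPL39 the joint ratio differed from that of the gene by less than 0.1. Which copy a read came from cannot be told from these tables, so the sizes given for RPL9 and RPS28 are uncertain.

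**Figure D4:**
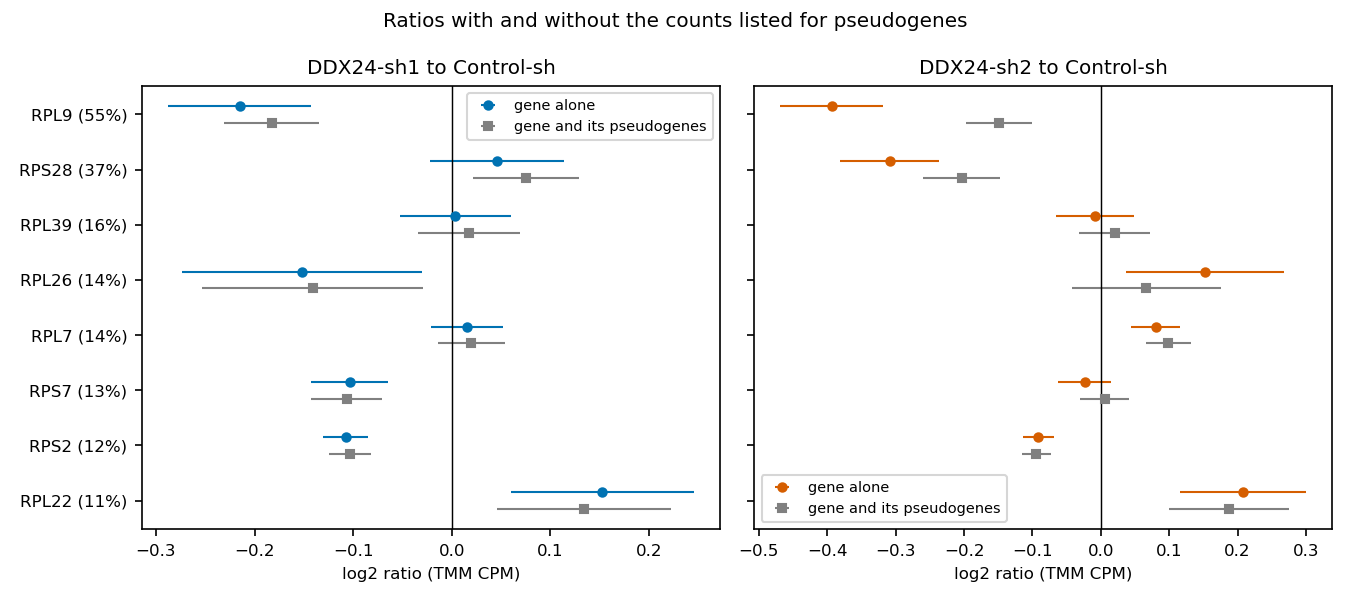
Log2 ratio to Control-sh of the 8 ribosomal protein genes whose pseudogenes hold at least 10% of the joint counts in Control-sh (share in brackets), for the gene alone (coloured circles) and with its pseudogenes (grey squares). Bars are 95% counting intervals. RPL9 moves from -0.39 to -0.15 in sh2 and RPS28 from -0.31 to -0.20.

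By sequence at the start, 44 genes with at least 10 CPM had a TOP tract exactly at a RefSeq start. Their median log2 ratio was 0.005 in sh1 and -0.01 in sh2. The 15 with none at that base had -0.05 and -0.12, but most of them had a tract within 10 bases of it. The sets thus differ mainly in where the tract stood relative to the annotated start. Both sets overlapped over most of their range. RPS26, RPS29 and RPL9, with the widest ratios of well-counted genes in sh2, were all in the second set, as their windows above show, but in opposite directions. Within 28 of the genes lie 60 annotated small nucleolar RNAs. The 28 host genes had medians of -0.05 and -0.03 and the 48 counted genes without one 0.02 and -0.01.

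Other TOP mRNAs, those of translation factors and associated proteins, included EEF2 and PABPC1, which were lower in both knockdown libraries. Of 17 such genes with at least 1 CPM, 7 were at least 1.2-fold lower and none higher in sh1, and 4 were lower and 1 higher in sh2, with medians of -0.11 and -0.04. The shares over all genes were 25.0% lower and 20.9% higher in sh1, and 25.6% lower and 21.1% higher in sh2. EEF2, which moves the ribosome along the mRNA, had 40273, 29781 and 28614 counts, a log2 ratio of -0.54 (interval -0.56 to -0.51) and -0.57 (-0.60 to -0.55). PABPC1, which binds the poly(A) tail, had 17224, 12593 and 14156 counts (-0.55 and -0.36). EEF1A1, which brings aminoacyl-tRNA to the ribosome, had 144353, 164389 and 138047 counts (0.09 and -0.15), and its partner EEF1D had 1786, 1863 and 2288 (-0.04 and 0.28). EEF2, although its start carries the same kind of tract as RPL35 and RPS12, was lower in both knockdown libraries. None of the 44 ribosomal protein genes with a tract at the start reached its size.

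**Figure D5:**
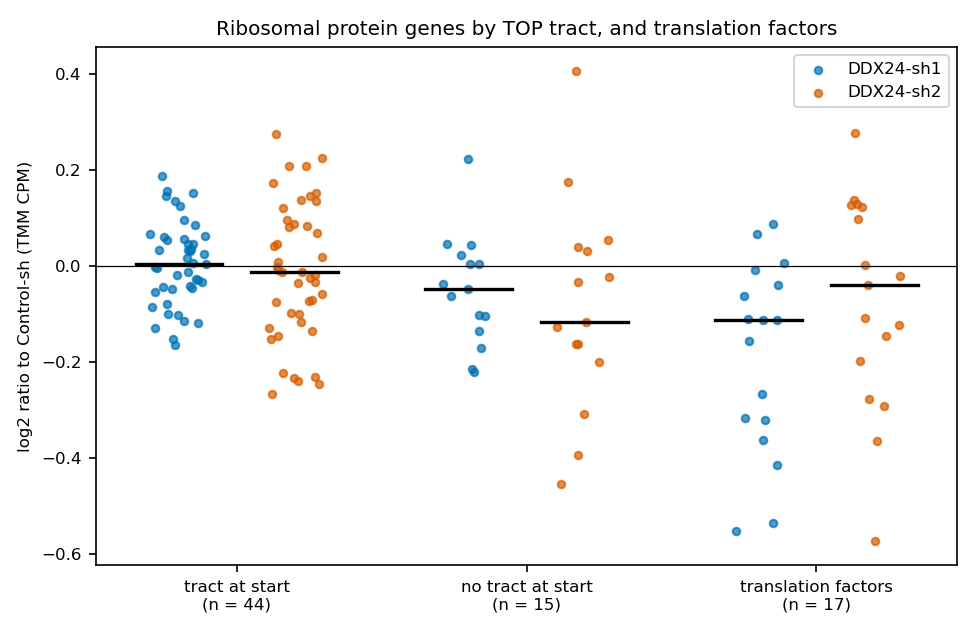
Log2 ratio to Control-sh for ribosomal protein genes with a TOP tract exactly at a RefSeq start (44) or none at that base (15), and for 17 translation factor genes with TOP mRNAs. The ribosomal protein genes are at 10 CPM or more, and most of the 15 have a tract within 10 bases of the start. Each point is a gene in 1 library, black lines are medians (0.005, -0.01, -0.05, -0.12, -0.11 and -0.04 from left to right).

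The ribosomal proteins with names outside the rule that are reported here lay within 1.2-fold of Control-sh. FAU, which encodes RPS30 fused to a ubiquitin-like protein, had 3722, 3990 and 3829 counts (log2 ratios 0.00 and -0.04), and RACK1, a scaffold protein on the head of the small subunit, had 17164, 16239 and 17270 (-0.18 and -0.07). The paralogs, genes related in sequence to those of ribosomal proteins, varied in direction. RPL22L1 had 1191 counts in Control-sh, 833 in sh1 and 1291 in sh2 (-0.61, interval -0.75 to -0.49, and 0.04, interval -0.08 to 0.15), beside the higher counts of RPL22 in both libraries. RPL39L had 311, 270 and 256 counts (-0.30 and -0.36) and RPS27L, a p53 target, had 2844, 3450 and 3716 (0.18 and 0.30). RPL36AL had 1748, 2221 and 1862 counts (0.25 and 0.01), RPL7L1 had 2366, 2342 and 2661 (-0.11 and 0.09), and RPL26L1 had 642, 645 and 595 (-0.09 and -0.19). RPL3L, a muscle form, had 11, 8 and 18 counts, and RPL10L, a testis form, had none.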

How the data were processed

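Per the submitters' processing notes, which give no role or order, the tools were Bowtie2 2.0.6, TopHat2 2.0.9, Cufflinks 2.1.1 and Cuffdiff 2.1.1. The authors deposited whole-number read counts per gene and FPKM values (fragments scaled by gene length and library size) for 3 libraries of A549 cells. The counter, its treatment of strand and of reads with several matches, and the genome build were not given in the sources used here. All 58735 genes matched GENCODE 29 in start and end. The deposited counts were scaled by TMM (edgeR 4.0.16, R 4.3.3) to CPM, and log2 ratios to Control-sh took a prior count of 2. Intervals are exact conditional binomial (Clopper-Pearson) 95% intervals for 2 counts. The interval of the large to small ratio is the exact conditional one of the odds ratio. They cover counting error only, and reads carried no molecular identifiers. With 1 library per group no test was run. A difference was counted from 1.2-fold, at a mean of at least 1 CPM. Ratios and intervals were tested on data simulated with counting error only, so spread between cultures and the TMM scaling were not checked. Python 3.11.15, scipy 1.17.1 and DESeq2 1.42.0 (size factors, as an alternative) were also used.

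The group and all lists were chosen with earlier results of these data known. Genes named were the 4 highest and 4 lowest ratios per subunit and library at 10 CPM or more, the 5 highest and 5 lowest levels per length per subunit, every gene below 10 CPM, the P stalk, RPL5, RPL11, RPS27A, RPSA, ribosomal proteins outside the rule, paralogs, and the extremes of other lists. A few genes that the rule names are not reported here. Genes named for their overlap, pseudogenes or ratio between the knockdown libraries, and RPL26, were chosen after their values were seen.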

Additional observations from a re-analysis of the deposited data

Results flagged for a closer look

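In 5 of the ribosomal protein genes reported here the knockdown libraries stood on opposite sides of Control-sh, each with a counting interval that excluded 0. The share of all genes that did so is not given here, so 5 cannot be called many or few. Intervals excluded 0 for 76.6% (sh1) and 79.3% (sh2) of the 2127 genes with at least 100 CPM. With 1 library for each hairpin the difference was not tested. The log2 ratio of sh2 to sh1 was -0.31 for RPL38, -0.20 for RPS19 (34279, 37930 and 32626 counts) and -0.15 for RPL37A (10095, 11233 and 9965 counts), which were above Control-sh in sh1 and below it in sh2. It was 0.30 for RPL26 (1123, 1083 and 1320 counts) and 0.13 for RPS27A (11382, 11814 and 12779 counts), which went the other way. RPL26 shares 59.0% of its exonic bases with another gene. With its pseudogenes added, the log2 ratio of RPL26 to Control-sh in sh2 was 0.07 (interval -0.04 to 0.18), so that the interval spanned 0. In sh1 the intervals of RPS27A (upper end -0.009) and RPL38 (lower end 0.007) ended close to 0. Antisense transcripts overlap RPL38, with 1, 2 and 1 counts.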

How the results depend on the processing

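No paired analysis was possible because each group held 1 library. The medians over ribosomal protein genes and the difference of the subunit medians stayed within the counting half-width of their reported values under DESeq2 size factors, total-count scaling, TMM without the ribosomal protein genes, a prior count of 0.5, other minimum levels, FPKM and added pseudogene counts. Counts past 1.2-fold were small and moved with the settings. At a mean of at least 10 CPM or of at least 100 CPM, 0 genes were higher and 0 lower in sh1, and 2 were higher in sh2. With total-count scaling RPL13 was at -0.24 in sh2, which left 4 genes at least 1.2-fold lower there. With pseudogene counts added, an alternative chosen after seeing the data, 3 were lower in sh2. At 1.5-fold, 0 were lower in sh1 and 0 in sh2, and 1 was higher in sh2. No share over all genes is given for 1.5-fold or for the FPKM counts that follow. From FPKM with the shRNA labels as deposited, 4 were higher and 4 lower under the label sh1 and 1 higher and 1 lower under sh2, DDX24 was at -1.45 and -1.72, RPS28 in sh2 was at 0.059 in place of -0.31 and RPL17 at -0.33 in place of 0.44. With those labels exchanged, every single-gene ratio lay within the counting interval of its reported value, so the label accounts for these shifts by construction. Without the genes that share exons on the same strand, an alternative added after seeing the data, the large to small log2 ratio of sums in sh2 was -0.0051. This also left out highly counted genes with little overlap, such as RPL13A (7.11%), and the cause of the shift was not tested. Of nuclear protein-coding counts the ribosomal protein genes held 5.26% in Control-sh, 5.21% in sh1 and 5.30% in sh2. With the deposited gene lengths in place of transcript lengths, the median level in Control-sh was 164.8 in place of 590.2 CPM per kb. Of 94 ratios of named single genes, total-count scaling moved 10 out of their counting interval, all in sh2, and added pseudogene counts moved 3 (RPL9, RPS28 and RPS10, in sh2). At these depths, the 3 ribosomal protein genes under 10 CPM had wide intervals. Only that of RPL36A in sh2 (0.68 to 1.77) lay wholly past 1.2-fold.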

Other observations

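Chromosome 19 carries 12 of the ribosomal protein genes, and these were chosen for a look after their values were seen. Their median log2 ratio to Control-sh was -0.05 in sh1 and -0.19 in sh2, where 1 of the 12 was above 0. The 60 well-counted genes of the group on other chromosomes had medians of 0.004 and -0.01. All 163 genes of chromosome 19 with 100 CPM or more had medians of -0.03 and -0.14, next to -0.01 and -0.03 for 1964 such genes elsewhere. Across the 74 ribosomal protein genes with at least 10 CPM, Spearman's rho of the log2 ratio with the GC content of the transcript was -0.18 in sh1 and -0.33 in sh2, a description over genes that share the same libraries. The part of GC content in these values was not tested.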
